A study of Mus musculus with 158 samples.

Results

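The genes described here are 35 members of the presynaptic machinery, here proteins of synaptic vesicles and those that dock, fuse and recycle them. They were taken by symbol from the 21956 gene rows of a count table, and all 35 were found. The table holds RNA counts of single, untreated mouse brain cells that had been drawn up with a patch pipette. Libraries taken to be of the same cell were summed, and the cells fall into 6 groups. The neurons of acute slices were 5 from hippocampal field CA3, 15 from hippocampal field CA1 and 22 from cortex, all of strain C57/BL6/N. The neurons of primary culture were 8 from hippocampus after 15 days (strain C57/BL6) and 13 from cortex (C57/BL6/N). Among the 8 are 2 pairs of equal title but for a final S or D. No label gives the meaning of these letters, so the 8 may be fewer separate cells. Of the cultured cortical neurons, 3 were taken at 6 days, 3 at 10 days, 4 at 13 days and 3 at 15 days. The last group was 86 astrocytes of cortical culture, the non-neuronal cells against which the neurons were set, at 7, 12, 14 or 15 days (3 cells of C57/BL6, 83 of C57/BL6/N). The labels give neither the age of the animals nor which animal or culture a cell came from.

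A synaptic vesicle fuses when its own SNARE protein, a synaptobrevin (Vamp1 or Vamp2), zips up with Snap25 and syntaxin (Stx1a) on the plasma membrane. Synaptotagmins sense the calcium that triggers fusion, complexins hold the SNARE bundle ready, and active zone proteins such as Unc13 (Munc13), Rims, Bassoon (Bsn) and Piccolo (Pclo) place and prime the vesicle at the release site. Afterwards Nsf and its adaptors (Napa and Napb) take the spent SNARE bundle apart, and dynamin (Dnm1), endophilin (Sh3gl2), amphiphysin (Amph) and synaptojanin (Synj1) take up the membrane again. Many of these proteins come in close paralogs, and neurons are known to differ in which paralog they use.

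Promoters from RefSeq (GRCm38.p6), of 300 bases with 250 before and 50 after the start site, were found for 29 of the 35 genes, 37 promoters in all. The letters TTCAGCACC, the left part of the RE1 element bound by the repressor REST, were in 2 of the 37 (5.41%), those of Syn1 and Unc13a, against 0.371% of 32851 promoters of all genes. The cAMP response element TGACGTCA was in 3 (8.11%), of Napa, Sh3gl2 and Syn1, against 1.79% of all. The GC box GGGCGG was in 23 (62.2%) against 35.7%, and TATAAA in 3 (8.11%) against 13.6%. Both strands were searched, and a match describes letters and not a bound site. Syn1, Sh3gl2 and Unc13a are shown because Syn1 and Sh3gl2 were among the 4 genes with the largest difference in detection between cultured cortical neurons and astrocytes, while Unc13a was barely counted in either. The capitals mark TTCAGCACC or TGACGTCA, and in Unc13a the letters are read on the opposite strand. The regions are chrX:20920869-20921168 (minus strand) for Syn1, chr4:85205206-85205505 (plus strand) for Sh3gl2 and chr8:71671708-71672007 (minus strand) for Unc13a, each printed along the gene's own strand.
Syn1: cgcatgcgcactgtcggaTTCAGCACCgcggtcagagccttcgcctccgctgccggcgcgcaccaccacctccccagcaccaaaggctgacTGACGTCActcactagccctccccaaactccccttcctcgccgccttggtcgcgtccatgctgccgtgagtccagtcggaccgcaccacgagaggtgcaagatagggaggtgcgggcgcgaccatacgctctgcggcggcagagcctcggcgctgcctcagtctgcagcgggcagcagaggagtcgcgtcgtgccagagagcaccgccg
Sh3gl2: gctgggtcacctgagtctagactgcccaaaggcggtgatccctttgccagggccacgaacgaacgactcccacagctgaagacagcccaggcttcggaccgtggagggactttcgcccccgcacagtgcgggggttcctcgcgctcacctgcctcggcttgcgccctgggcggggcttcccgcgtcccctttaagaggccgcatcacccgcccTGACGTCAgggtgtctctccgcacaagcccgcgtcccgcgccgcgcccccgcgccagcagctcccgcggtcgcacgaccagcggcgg
Unc13a: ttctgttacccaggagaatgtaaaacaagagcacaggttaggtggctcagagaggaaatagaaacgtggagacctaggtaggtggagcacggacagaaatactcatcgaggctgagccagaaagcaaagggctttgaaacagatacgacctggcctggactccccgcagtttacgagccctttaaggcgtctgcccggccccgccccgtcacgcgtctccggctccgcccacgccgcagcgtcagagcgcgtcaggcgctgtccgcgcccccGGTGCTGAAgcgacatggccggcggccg

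Counts per cell ranged from 535369 to 38680739. Levels are given as counts per 1000000 (CPM), either of the summed counts of a group or of a cell. Intervals are exact Poisson 95% intervals of the summed counts and cover counting error only. A gene was called detected in a cell with at least 5 counts after the cell had been thinned to 1000000 counts, which all cells but 1 of CA1 reached. As the labels name no animal or culture, each group was 1 sample, and there is no test between groups. Libraries were basecalled with 1 of 2 versions of bcl2fastq, v1.8.4 or v2.17, and values within a version use only its libraries. Groups that enter several comparisons, such as cultured cortical and CA1 neurons, make those comparisons share cells. In each comparison a gene is called higher or lower when the log2 ratio, with 1 CPM added, was 1 or more, or -1 or less, both by summed CPM and by the cells' mean CPM. Measured genes have at least 10 counts over both groups and a count in at least 3 cells, and a gene that falls below this when a cell is left out also loses its call. Labels were checked against 20 neuron and 20 astrocyte markers that are not among the 35 genes. The median cell detected 12.0 neuron markers in CA3, 11.5 in CA1, 11 in cortical slices, 19 in hippocampal and 13.0 in cortical cultures, and 4.0 among astrocytes. A larger share of astrocyte than of neuron markers was detected in 3 of 14 CA1, 6 of 22 cortical slice and 3 of 13 cultured cortical neurons, and in none of the other neurons. At least 3 of 12 microglia markers were detected in 1 of 5 CA3, 8 of 14 CA1, 9 of 22 cortical slice and 3 of 13 cultured cortical neurons.

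Cultured hippocampal neurons carried the most complete presynaptic set and astrocytes the least. A CA3 neuron detected 20.6 ± 3.29 of the 35 genes (SD over cells, 17 to 24), a CA1 neuron 15.6 ± 5.71 (5 to 24) and a cortical slice neuron 15.6 ± 8.24 (1 to 29). A cultured hippocampal neuron detected 29.9 ± 2.30 (27 to 33) and a cultured cortical neuron 17.5 ± 9.02 (3 to 29), against 6.01 ± 2.90 in an astrocyte (0 to 13). The lowest hippocampal culture cell thus stood above the highest CA3, CA1 and astrocyte cells, while both cortical groups overlapped with every other group. The number followed how many genes of any kind the cell showed, with Spearman's rho of 0.945 over 22 cortical slice, 0.856 over 8 cultured hippocampal, 0.686 over 13 cultured cortical and 0.654 over 14 CA1 neurons. These points share their library, so rho is a description. Slice neurons held their presynaptic genes with few genes in all: the median CA3, CA1 and cortical slice neuron detected 57.1%, 51.4% and 44.3% of the 35 genes but 9.93%, 8.69% and 8.26% of all rows. In the median astrocyte these shares were 17.1% of the 35 and 22.5% of all rows.

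**Figure D1:**
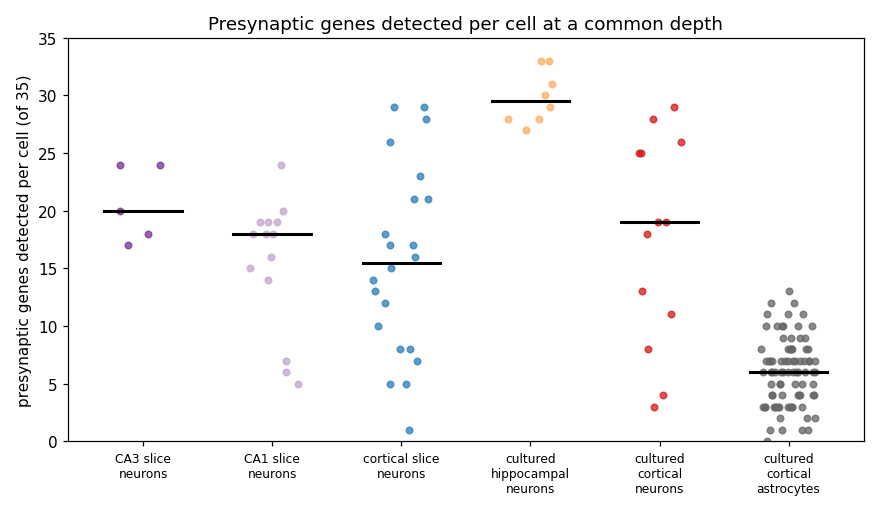
Number of the 35 presynaptic genes detected in each cell (vertical axis, 1 point per cell, thinned to 1000000 counts) in the 6 groups, with the median as a bar. Cultured hippocampal neurons lie between 27 and 33, and astrocytes between 0 and 13.

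Per kilobase of exon, a scale on which genes can be ranked, the leading genes differed by group. Napa led in CA3 (566.4 CPM per kilobase, 95.3% of its counts from 1 cell), Syt1 in CA1 (209.6) and Cplx1 in cortical slices (350.0) and hippocampal cultures (964.5). In cultured cortical neurons Syt11 led (172.7) with Cplx1 next (156.9), and Syt11 led in astrocytes (129.5). Syt11, a synaptotagmin that lacks calcium binding, was thus the main transcript of the set outside neurons.

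**Figure D2:**
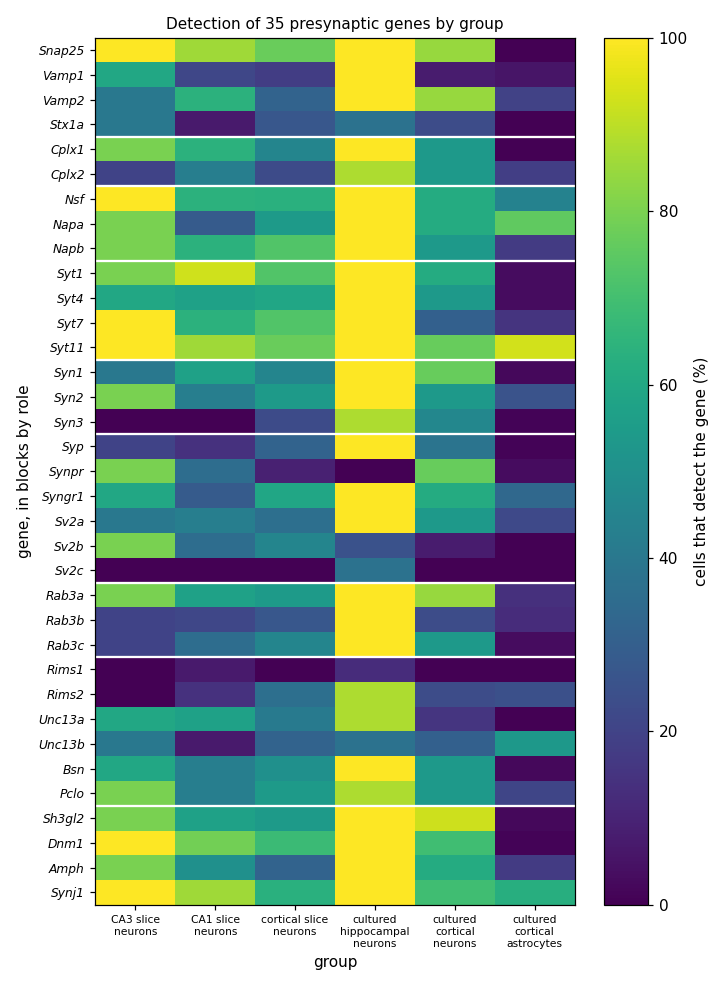
Share of cells (colour, in percent) that detect each of the 35 presynaptic genes (rows, in blocks by role) in the 6 groups (columns). In the hippocampal culture column Synpr is at 0 of 8 cells, Rims1 at 1, Sv2b at 2, and Stx1a, Sv2c and Unc13b at 3, and in astrocytes Syt11, Napa, Synj1 and Unc13b are the brightest.

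Cultured cortical neurons were set against the astrocytes of the same kind of culture to see which presynaptic genes mark neurons. Of the 35 genes 27 were higher in neurons and 0 lower, where 17.2% of 17473 measured genes were higher and 27.1% lower. The median log2 ratio was 4.67 over the 35 and -0.08 over all measured genes. Leaving out each of the 13 neurons in turn, 22 of the 27 stayed higher every time, and Vamp1, Sv2b, Rab3b, Nsf and Syt7 did not. Within v2.17, the only basecalling version of the astrocytes, 27 were higher and 0 lower.

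All 4 SNARE genes were higher in neurons. Snap25, the plasma membrane SNARE at chr2:136713453-136782428, ranged over the neurons from 0.910 to 783.8 CPM with a median of 136.0, and over the astrocytes from 0 to 1.90 with a median of 0. Its summed level was 370.6 CPM in neurons and 0.0353 CPM (0.0257 to 0.0472) in astrocytes, a log2 ratio of 8.49, with detection in 11 of 13 neurons and 0 of 86 astrocytes (up to 4.20% by the Clopper-Pearson 95% interval). The highest astrocyte exceeded the lowest neurons, so the cells overlapped at the low end. Vamp2, the main synaptobrevin of forebrain, had 245.0 CPM in neurons and 4.17 CPM in astrocytes. Vamp1 had 8.18 CPM in neurons and 1.10 CPM in astrocytes, but 98.1% of its neuronal counts came from 1 cell.

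The synapsins, which tether vesicles to one another, were all higher, Syn1 with a summed level inside 198.1 to 201.9 CPM by its Poisson interval in neurons and 1.52 CPM (1.45 to 1.59) in astrocytes. Detection of Syn1 reached 10 of 13 neurons and 2 of 86 astrocytes. The vesicle membrane protein synaptoporin (Synpr) had a log2 ratio of 9.60, the largest of the 35 with 1 CPM added, while without it Cplx1 and Snap25 had larger folds. Its cells ranged from 0 to 3802 CPM with a median of 144.6 in neurons, and from 0 to 13.0 with a median of 0 in astrocytes. Sh3gl2 (endophilin A1) was the most widespread, detected in 12 of 13 neurons and 2 of 86 astrocytes, with 749.5 CPM in neurons and 0.599 CPM in astrocytes. Both complexins and the 3 Rab3 genes, small GTPases on the vesicle, were also higher, Cplx1 with 343.5 CPM in neurons and 0.0180 CPM in astrocytes.

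Among the 8 genes that were neither higher nor lower were the Nsf adaptor Napa, the priming factors Unc13a and Unc13b, and Syt11. Sv2c and Rims1 were at or under 0.105 CPM in both groups. Syt11 had 898.8 CPM in neurons and 673.8 CPM in astrocytes, detected in 10 of 13 neurons and 80 of 86 astrocytes. Napa, the broadly used Nsf adaptor, had 111.7 CPM in neurons and 99.8 CPM in astrocytes (65 of 86 cells), while its paralog Napb had 185.6 CPM in neurons and 18.2 CPM in astrocytes. Unc13b had 30.6 CPM in neurons and 66.9 CPM in astrocytes, detected in 4 of 13 neurons and 46 of 86 astrocytes. Unc13a, the main Munc13 of excitatory synapses, was low in both, at 1.62 CPM in neurons and 0.265 CPM in astrocytes. Of the disassembly and membrane uptake genes, astrocytes thus held Napa, Nsf (44.5 CPM) and Synj1 (114.5 CPM), while Snap25 was not detected in any of them. Most genes of these roles were nevertheless higher in neurons. These were 2 of 3 disassembly genes (Nsf and Napb, log2 ratios of 1.41 and 3.28) and 3 of 4 uptake genes (Dnm1, Sh3gl2 and Amph).

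Of 41 further presynaptic genes, 40 were measured, 25 higher and 2 lower, among them Cadps, which primes dense core vesicles, with 241.9 CPM in neurons and 3.45 CPM in astrocytes. Of 33 relatives that act in trafficking in most cells, 4 were higher and 11 lower. Among these Snap23, the broadly expressed relative of Snap25, had 10.8 CPM in neurons and 90.0 CPM in astrocytes.

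Cultured hippocampal neurons were next set against cultured cortical neurons. Of the 35 genes 20 were higher and 4 lower, where 27.4% of 13485 measured genes were higher and 22.1% lower. Over the 35 the log2 ratio had a median of 1.16, and over all measured genes 0.15. When each of the 21 cells was left out in turn, 15 of the 20 stayed higher, while of the 4 lower genes only Synpr did. Within v2.17, the only version of the hippocampal cells, 17 were higher and 3 lower, and without the 2 hippocampal cells whose titles end in D 21 were higher and 4 lower. The 2 pairs that share a title had r of 0.706 and 0.719 across genes (log2 CPM), inside the 0.626 to 0.900 of the other 26 hippocampal pairs. Detection also differed for genes of all kinds, by a median of 38.5 percentage points over the 35 and 24 over all measured genes. Strain differed with the group and cannot be told apart from region. Days in culture differed for all but 3 of the cortical cells. Those 3 were all of v1.8.4, so with them alone version cannot be told apart from region. Markers differed too: every hippocampal cell detected 8 to 10 of 12 inhibitory neuron markers, against 0 to 9 with a median of 4.0 in cortical cells, and their part in the values was not tested. Of measured markers, 17 of 18 of astrocytes and 7 of 10 of microglia were lower in hippocampal cultures, and without the 3 cortical cells against their label by markers 16 members were higher and 4 lower.

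Vamp1, the synaptobrevin best known from spinal cord and brainstem, differed most among the SNAREs. Its cells ranged from 24.7 to 850.8 CPM with a median of 178.3 in hippocampal cultures, and from 0 to 70.2 with a median of 0 in cortical cultures. The summed level was 258.6 CPM (255.3 to 262.0) in hippocampal and 8.18 CPM (7.80 to 8.57) in cortical neurons, a log2 ratio of 4.82. All 8 hippocampal cells detected it against 1 of 13 cortical cells, and 1 cortical cell reached into the hippocampal range. Vamp2 was alike only in the sum over all cortical ages, at 241.1 CPM in hippocampal and 245.0 CPM in cortical neurons. Per kilobase of exon it had 63.3 CPM in the hippocampal cells, all of 15 days. In the cortical cells it had 2.99 at 6 days, 152.2 at 10 days, 70.1 at 13 days and 10.4 at 15 days. Snap25 had 2579 CPM in hippocampal and 370.6 CPM in cortical neurons, and here the cells did not overlap, the lowest hippocampal cell being at 1680 and the highest cortical cell at 783.8.

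All 3 Rab3 genes were higher in hippocampal cultures. Rab3c had 2626 CPM (2615 to 2636) there and 271.1 CPM (268.8 to 273.3) in cortical neurons. Its hippocampal cells lay from 1787 to 4059 CPM and its cortical cells from 0 to 600.0, with no overlap. Rab3b was detected in 8 of 8 hippocampal and 3 of 13 cortical cells, with 614.2 CPM in hippocampal and 93.9 CPM in cortical neurons. Unc13a had 48.3 CPM in hippocampal neurons (7 of 8 cells) and 1.62 CPM in cortical neurons (2 of 13), a log2 ratio of 4.24. Cplx1, Nsf and Napb were likewise higher, Nsf with 1116 CPM in hippocampal and 119.7 CPM in cortical neurons. The calcium sensor Syt7 had 179.3 CPM in hippocampal and 78.4 CPM in cortical neurons, and 92.8% of its cortical counts came from 1 cell.

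Of the 6 vesicle membrane genes Synpr alone was lower, while 4 were higher and Sv2b was neither. It was detected in 0 of 8 hippocampal cells (up to 36.9%) and 10 of 13 cortical cells, with summed levels of 0.0455 CPM (0.0124 to 0.116) in hippocampal and 987.5 CPM (983.3 to 991.8) in cortical neurons. Its relatives synaptophysin (Syp) and synaptogyrin 1 (Syngr1) were higher, Syp with 212.3 CPM in hippocampal and 92.0 CPM in cortical neurons. Sv2a, a vesicle glycoprotein and the target of levetiracetam, had 941.3 CPM in hippocampal and 230.8 CPM in cortical neurons. Syn3 had 33.2 CPM in hippocampal and 161.6 CPM in cortical neurons, but was detected in 7 of 8 hippocampal and 6 of 13 cortical cells, and 48.7% of its cortical counts came from 1 cell. Of the further presynaptic genes 13 of 39 were higher and 4 lower, such as Sncb (beta-synuclein) with 105.1 CPM in hippocampal and 10.0 CPM in cortical neurons. Of the broad relatives 7 of 33 were higher and 8 lower.

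**Figure D3:**
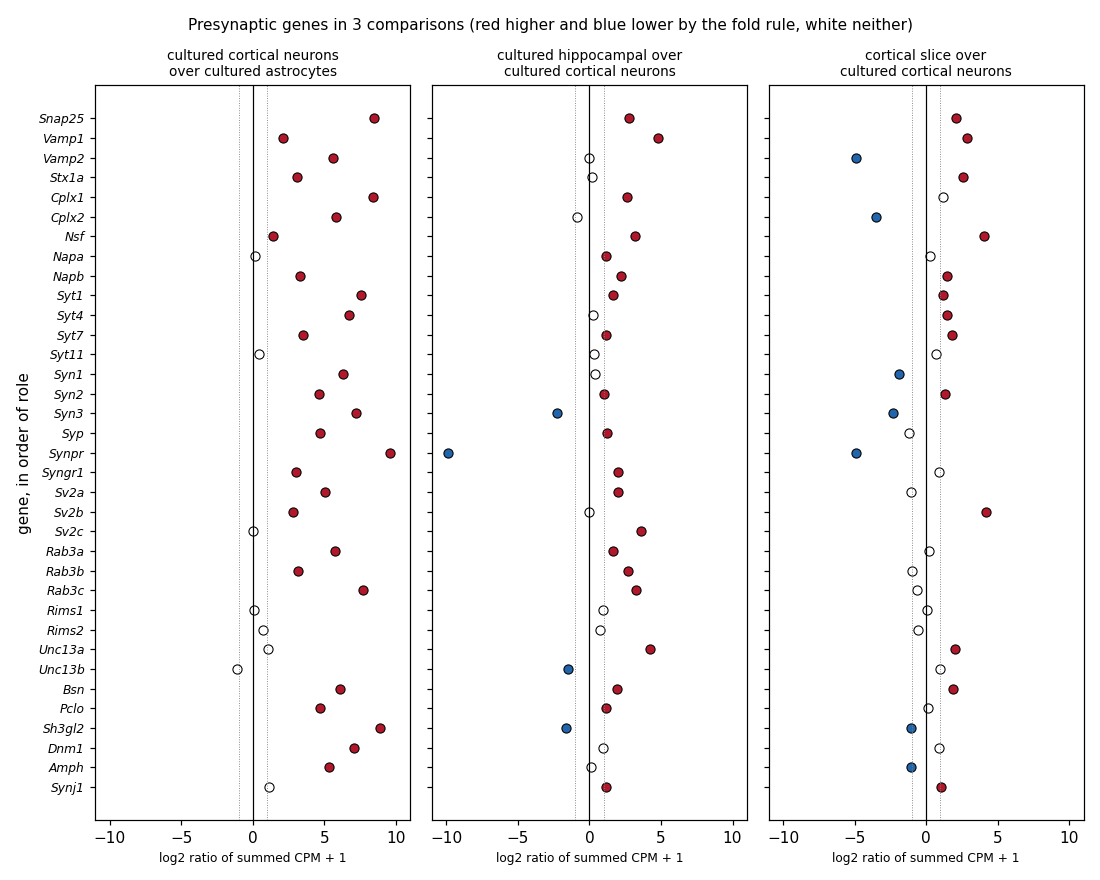
Log2 ratio of summed CPM + 1 for each of the 35 genes (rows, by role) in 3 comparisons. Red points are higher and blue points lower by the fold rule, white points are neither, and dotted lines mark a log2 ratio of 1 in either direction. Synpr lies at 9.60 for cultured cortical neurons over astrocytes and at -9.88 for hippocampal over cortical cultures.

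Cortical neurons from slices were set against those in culture, where members differed in both directions, as did genes of all kinds. Of 34 genes measured, all but Sv2c, 13 were higher in slices and 7 lower, where 21.8% of 13741 measured genes were higher and 34.2% lower. The median log2 ratio was 0.78 over the 34 and -0.24 over all. With each of the 35 cells left out in turn, 8 of the 13 stayed higher and 5 of the 7 stayed lower. Both basecalling versions of the libraries occur in both groups, and within each version all 13 kept the higher sign, but only 3 of the 7 kept the lower sign (Synpr, Vamp2 and Amph). Of the cultured cells, those of v1.8.4 are of 6 and 15 days and those of v2.17 of 10 and 13 days, so version and age cannot be told apart. Of the measured marker genes, 5 of 7 of excitatory neurons and 11 of 12 of microglia were higher in slices, and 6 of 11 of inhibitory neurons lower. The summed excitatory markers ranged from 0 to 3031 CPM in slices and from 0.135 to 2529 CPM in culture, the inhibitory from 0 to 16439 CPM in slices (Dlx6 at 0) and from 0.954 to 11108 CPM in culture, and the microglia markers from 0.456 to 20824 CPM in slices and from 0 to 2008 CPM in culture. Without cells of at least 3 microglia markers 15 members were higher and 7 lower, and the part of the excitatory and inhibitory markers was not tested.

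Vamp2 and Vamp1 differed in opposite directions. Vamp2 ranged over slice cells from 0 to 43.1 CPM with a median of 1.24, and over cultured cells from 0 to 802.0 with a median of 47.2. In sum it had 7.39 CPM (6.97 to 7.84) in slices and 245.0 CPM (242.8 to 247.1) in culture, a log2 ratio of -4.87 (-5.88 within v2.17 and -1.43 within v1.8.4). Vamp1 had 67.1 CPM in slices, from 4 of 22 cells, and 8.18 CPM in culture. The SNARE genes of the plasma membrane were higher, Stx1a with 57.2 CPM in slices and 8.94 CPM in culture, and Snap25 with 1606 CPM in slices and 370.6 CPM in culture. Nsf had 2021 CPM (2014 to 2028) in slices and 119.7 CPM (118.2 to 121.2) in culture, with detection in 14 of 22 slice cells and 8 of 13 cultured cells. The slice cells spread widely: 16 with titles in P ranged from 0 to 33899 CPM with a median of 125.5, and 5 with titles in F from 0.23 to 2971. With 1 cell left out in turn, the log2 ratio of Nsf, 4.07, ran from 3.46 to 5.14. Its adaptor Napb had 516.2 CPM in slices and 185.6 CPM in culture, but its log2 ratio was 0.45 within v2.17 and 3.14 within v1.8.4, and its call ended when any of 11 cells was left out.

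Among vesicle membrane genes Sv2b was higher, found in 10 of 22 slice cells and 1 of 13 cultured cells, with 124.9 CPM (123.1 to 126.7) in slices and 5.93 CPM (5.61 to 6.27) in culture. Its log2 ratio was 7.45 within v2.17 and 1.03 within v1.8.4. Sv2a ran the other way in sum, with 110.2 CPM in slices and 230.8 CPM in culture, without meeting the rule. Synpr was lower, with 32.6 CPM in slices (2 of 22 cells) and 987.5 CPM in culture (10 of 13). Detection of Syt7 reached 16 of 22 slice cells and 4 of 13 cultured cells, with 272.3 CPM in slices and 78.4 CPM in culture. Unc13a had 9.69 CPM in slices and 1.62 CPM in culture. Syn1 had 52.9 CPM in slices, a log2 ratio of -1.90 over culture, and Cplx2 31.6 CPM in slices and 369.9 CPM in culture, but within v1.8.4 their log2 ratios were 0.33 and 0.28. Syn2 had 843.4 CPM in slices and 334.4 CPM in culture with 65.6% of its slice counts from 1 cell. Of further presynaptic genes 12 of 37 were higher and 8 lower, and of broad relatives 10 of 33 higher and 8 lower.

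Against cultured hippocampal neurons, CA1 slice neurons held less Rab3c, Syn3 and Syp and more Synpr. All 35 genes were measured, of which 4 were higher and 14 lower in CA1, where 15.8% of 12806 measured genes were higher and 47.4% lower. The share of members lower, 14 of 35, is thus below that of all genes. Detection was lower by a median of 42.9 percentage points over the 35 and by the same over all measured genes. The median log2 ratio was -0.60 over the 35 and -1.11 over all. This centre depends on scaling: with edgeR TMM factors the share of all genes higher and lower was 25.82% and 35.86%, the median over the 35 was 0.52, and 9 of the 35 were higher and 8 lower. With DESeq2 size factors these were 28.24%, 33.95%, 0.73, 12 and 8. With each of 23 cells left out in turn, 13 of the 14 stayed lower, all but Syngr1, and of the 4 higher only Synpr stayed. Within v2.17 alone, 4 were higher and 16 lower. Strain and time in culture differ with the group and cannot be told apart from the source. Marker genes differed too: 7 of 7 measured excitatory neuron markers and 12 of 12 microglia markers were higher in CA1, and 9 of 12 inhibitory neuron markers lower. The summed inhibitory markers ranged from 0.607 to 11653 CPM in CA1 and from 10005 to 27781 CPM in culture, the excitatory from 3.74 to 7496 CPM in CA1 and from 6.26 to 421.3 CPM in culture, and the microglia markers from 0.253 to 20432 CPM in CA1 and from 0 to 36.2 CPM in culture, where 6 of 12 were at 0, among them Tmem119 and P2ry12. Without CA1 cells of at least 3 microglia markers 7 members were higher and 14 lower, and the part of the excitatory and inhibitory markers was not tested.

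Rab3c was lower, at 53.5 CPM (51.9 to 55.1) in CA1 and 2626 CPM (2615 to 2636) in culture, a log2 ratio of -5.59. Its CA1 cells ranged from 0 to 462.1 CPM with a median of 0.325 and the cultured cells from 1787 to 4059, without overlap. Syn3 was detected in 0 of 14 CA1 cells (up to 23.2%) and 7 of 8 cultured cells, with 0.0642 CPM in CA1 and 33.2 CPM in culture. Syp, a classical marker of synaptic vesicles, was detected in 2 of 14 CA1 and 8 of 8 cultured cells, with 6.65 CPM in CA1 and 212.3 CPM in culture. Rab3b had 73.4 CPM in CA1 (3 of 14 cells) and 614.2 CPM in culture (8 of 8). Napa, Napb, Sv2a and Cplx1 were also lower, Napa being detected in 4 of 14 CA1 and 8 of 8 cultured cells.

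Synpr was higher in CA1, detected in 5 of 14 CA1 and 0 of 8 cultured cells, with 61.7 CPM in CA1 and 0.0455 CPM (0.0124 to 0.116) in culture. The CA1 cells ranged from 0 to 231.6 CPM with a median of 0, so the difference lay in a minority of them. Rims1 and Stx1a were called higher through 1 CA1 cell each, which held 99.9% and 99.6% of the CA1 counts. Unc13a, Syt1, Synj1 and Dnm1 met neither rule, Syt1 having 1748 CPM in CA1 (13 of 14 cells) and 2040 CPM in culture (8 of 8). Of further presynaptic genes 9 of 39 were higher and 17 lower, and of broad relatives 9 of 31 higher and 9 lower.

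**Figure D4:**
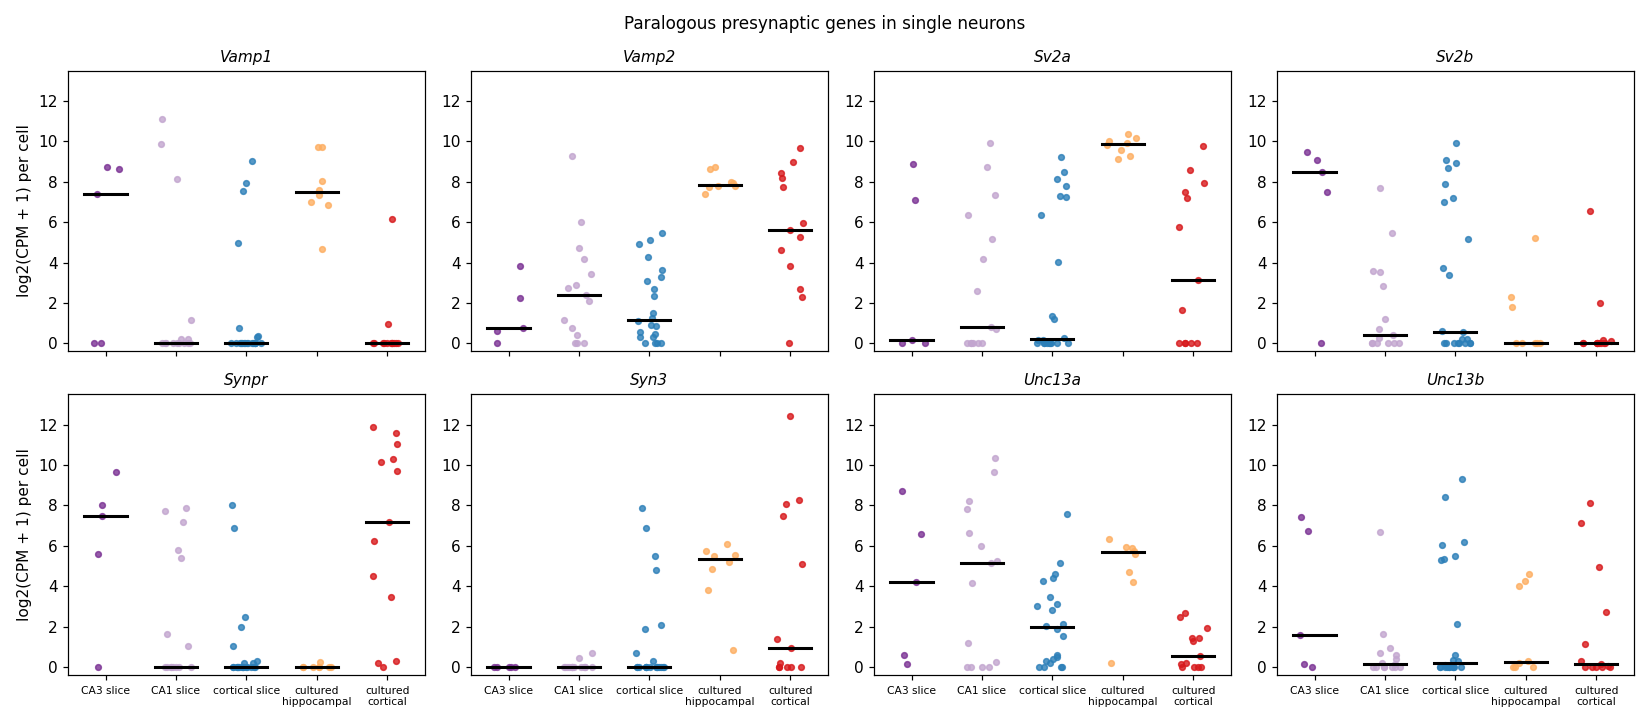
Level of 8 paralogous presynaptic genes in each neuron (vertical axis, log2 of CPM + 1) by group, 1 point per cell with the median as a bar. Vamp1 is above 0 in all 8 cultured hippocampal cells and low in most others, Sv2b is above 100 CPM in 4 of 5 CA3 cells, and Syn3 is at 0 in all 5 CA3 cells.

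Within slices, CA1 neurons in sum held more Unc13a and less Unc13b and Syn3 than cortical neurons. Of 34 genes measured 8 were higher and 8 lower in CA1, where 19.9% of 12666 measured genes were higher and 34.5% lower, with median log2 ratios of 0.09 over the 34 and -0.37 over all. With each of 37 cells left out in turn, Syn1, Unc13a and Cplx2 stayed higher and Syn3, Sv2b, Rab3c and Unc13b stayed lower. Within each basecalling version, 2 of the 8 kept the higher sign (Unc13a and Cplx2) and 6 of the 8 the lower, and only Unc13a, Unc13b, Syn2 and Syn3 had log2 ratios beyond 1 or -1 in both versions. Of 19 measured astrocyte markers 12 were lower in CA1, and without cells against their label by markers 7 members were higher and 8 lower. Without cells of at least 3 microglia markers, 10 members were higher and 15 lower. Unc13a and Unc13b code for paralogs that make vesicles ready for fusion. Unc13a was detected in 8 of 14 CA1 and 9 of 22 cortical cells, with 86.5 CPM (84.4 to 88.5) in CA1 and 9.69 CPM (9.20 to 10.2) in cortex. Its cells ranged from 0 to 1321 CPM with a median of 35.1 in CA1, and from 0 to 191.7 with a median of 2.92 in cortex. Unc13b was detected in 1 of 14 CA1 and 7 of 22 cortical cells, with 7.04 CPM in CA1 and 61.1 CPM in cortex. The ranges of both genes overlapped. The log2 ratio of Unc13a was 3.06 within v2.17 and 2.67 within v1.8.4, and that of Unc13b -2.90 and -4.03.

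Syn3 was detected in 0 of 14 CA1 and 5 of 22 cortical cells, with 0.0642 CPM (0.0208 to 0.150) in CA1 and 30.96 CPM (30.1 to 31.9) in cortex. Its difference thus lay in a minority of cortical cells, and most of the cortical counts came from 1 cell (3466 counts, 233.7 CPM). Syn1 had 170.9 CPM in CA1 and 52.9 CPM in cortex, with a log2 ratio of 3.32 within v2.17 and -3.23 within v1.8.4. Cplx2 had 109.5 CPM in CA1 and 31.6 CPM in cortex, a direction that turned when cells with at least 3 microglia markers were left out (log2 ratio of -3.96 against 1.76). Sv2b had 15.0 CPM in CA1 (5 of 14 cells) and 124.9 CPM in cortex (10 of 22), with a log2 ratio of -5.31 within v2.17 and 0.36 within v1.8.4. Vamp2 had 29.9 CPM in CA1 (9 of 14 cells) and 7.39 CPM in cortex (7 of 22), but its log2 ratio of 1.88 was -0.45 within v1.8.4, and 0.32 without the CA1 cell that held 69.3% of its counts. Syp had 6.65 CPM in CA1 and 39.8 CPM in cortex, with a log2 ratio of 1.26 within v1.8.4. Syn2 had 182.6 CPM in CA1 and 843.4 CPM in cortex, with log2 ratios of -2.12 within v2.17 and -3.79 within v1.8.4. Each of these calls ended when 1 cortical cell was left out, where the log2 ratios were -0.88 for Syp and -0.77 for Syn2. Of further presynaptic genes 4 of 35 were higher and 11 lower, and of broad relatives 7 of 33 were higher and 8 lower.

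CA3 neurons, here 5 cells, were set against CA1 neurons as the other principal field of the hippocampus. Of 33 genes measured, all but Syn3 and Sv2c, 7 were higher and 8 lower in CA3, where 22.2% of 9378 measured genes were higher and 42.8% lower. The median log2 ratio was 0.11 over the 33 and -0.70 over all. With each of 20 cells left out in turn, Sv2b, Unc13b and Syt7 stayed higher, and Syn1, Rab3c, Rims2 and Cplx2 stayed lower. Some of these rest on few cells. Unc13b was detected in 2 of 5 CA3 and 1 of 14 CA1 cells, and Rims2 in 0 of 5 CA3 and 2 of 14 CA1 cells. Within v2.17, with 4 CA3 cells, 7 were higher and 10 lower. All 8 measured inhibitory neuron markers and 11 of 12 microglia markers were lower in CA3. The summed inhibitory markers ranged from 0 to 20.3 CPM in CA3, where 6 of 12 were at 0 (Dlx1, Dlx2, Dlx5, Dlx6, Sst and Npy), and from 0.607 to 11653 CPM in CA1, and the microglia markers from 0.610 to 609.5 CPM in CA3 and from 0.253 to 20432 CPM in CA1. Without cells of at least 3 microglia markers 7 members were higher and 11 lower, and the part of the inhibitory markers was not tested.

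Sv2b, a paralog of Sv2a, had 705.3, 354.5, 546.5, 178.3 and 0 CPM in the 5 CA3 cells, against CA1 cells from 0 to 205.2 CPM with a median of 0.325. In 3 of the 5 CA3 cells it was thus above every CA1 cell. Its summed level was 364.2 CPM (357.1 to 371.4) in CA3 and 15.0 CPM (14.1 to 15.9) in CA1, a log2 ratio of 4.51. Syt7 had 129.6, 2009, 1672, 669.5 and 282.8 CPM in CA3, with 0 to 1464 CPM and a median of 10.9 in CA1. All 5 CA3 cells were above the CA1 median, and 2 were above the highest CA1 cell. Synpr had 177.8, 0, 261.2, 47.2 and 794.3 CPM in CA3, and was detected in 4 of 5 CA3 and 5 of 14 CA1 cells. Its call ended when any of 3 CA3 or 6 CA1 cells was left out. Napa had 4.07, 5569, 682.0, 59.4 and 133.7 CPM in CA3, so that 1 cell carried 95.3% of its counts.

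The lower genes in CA3 included Cplx2, with 4.07, 0.298, 0.678, 24.4 and 0.510 CPM in its cells, against CA1 cells from 0 to 608.2 CPM with a median of 1.51. The cells overlapped, and the summed levels were 7.65 CPM (6.65 to 8.76) in CA3 and 109.5 CPM (107.2 to 111.8) in CA1. Without cells of at least 3 microglia markers, the Cplx2 log2 ratio was 0.60 in place of -3.67, and that of Syn2 -0.16 in place of 1.26. Vamp2 had 5.54 CPM in CA3 (2 of 5 cells) and 29.9 CPM in CA1 (9 of 14), and its log2 ratio of -2.24 was -0.68 without 1 CA1 cell. Rab3c had 6.88 CPM in CA3 and 53.5 CPM in CA1, and Syn1 36.8 CPM in CA3 and 170.9 CPM in CA1. Of further presynaptic genes 15 of 32 were higher and 10 lower, among the higher the Rab3 effector Rph3a, and of broad relatives 6 of 30 were higher and 14 lower.

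Families of paralogs were compared per kilobase of exon, as shares of the family's summed level. Vamp1 made up 93.6% of the Vamp1 and Vamp2 level in CA3, 64.8% in CA1, 77.3% in cortical slices, 28.7% in hippocampal cultures and 1.24% in cortical cultures. In hippocampal cultures 8 of 8 cells detected both. Of 14 CA1 cells, 3 detected both, 6 Vamp2 alone and 0 Vamp1 alone, so the CA1 share of Vamp1 rests on 3 cells, and of 5 CA3 cells 2 detected Vamp1 alone, 1 Vamp2 alone and 1 both. Of 22 cortical slice cells, 3 detected Vamp1 alone, 6 Vamp2 alone and 1 both, and of 13 cultured cortical cells 10 detected Vamp2 alone and 1 both. Sv2b made up 50.9% of the Sv2 level in CA3, 5.72% in CA1, 38.5% in cortical slices, 0.342% in hippocampal cultures and 1.40% in cortical cultures. Of 5 CA3 cells, 2 detected both Sv2a and Sv2b, 2 Sv2b alone and 0 Sv2a alone. Sv2a was at 462.6 CPM in 1 CA3 cell and at 137.3 CPM or less in the others, so the CA3 share describes the summed level. In cortical slices 3 cells detected Sv2a alone, 5 Sv2b alone and 5 both or more.

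Unc13a made up 64.6% of the Unc13a and Unc13b level in CA3, 95.7% in CA1, 22.2% in cortical slices, 89.4% in hippocampal and 8.70% in cortical cultures, and 0.709% in astrocytes. Among cortical cultures this was 88.9% at 6 days and 98.3% at 10 days, at only 0.109 and 0.150 CPM per kilobase. It was 4.68% at 13 days and 5.84% at 15 days. In cortical slices, however, more cells detected Unc13a than Unc13b. Most of the Unc13b counts there came from the cells titled P33 (4383 counts, 629.0 CPM) and F7 (2975 counts, 342.3 CPM). The low cortical slice share of Unc13a thus describes the summed level and not most cells. All 46 astrocytes that detected the pair detected Unc13b alone. Cplx1 made up 99.2% of the complexin level in CA3, 88.6% in CA1, 98.2% in cortical slices, 95.8% in hippocampal and 67.6% in cortical cultures. By age, its share in cortical cultures was 17.0% at 6 days (at 0.0158 CPM per kilobase), 34.5% at 10 days, 84.4% at 13 days and 72.8% at 15 days. Syn2 made up 84.9% of the synapsin level in CA3, 33.4% in CA1, 86.6% in cortical slices, 54.3% in hippocampal and 39.2% in cortical cultures. Rab3a led the Rab3 family in each of the 5 neuron groups, with 84.6% in CA3, 79.9% in CA1, 82.4% in cortical slices, 47.4% in hippocampal and 69.2% in cortical cultures. Within cortical cultures of 15 days, however, Rab3c led with 55.1% and Rab3a had 37.6%. Part of Syn3 cannot be assigned to it alone: 14.1% of its exonic bases lie opposite those of Timp3, and the strand setting of the counting is not given in the sources used here.

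Among cultured cortical neurons, the number of presynaptic genes per cell was higher at the later ages. The cells detected 4, 3 and 19 of the 35 genes at 6 days, 11, 8 and 26 at 10 days, 28, 19, 25 and 18 at 13 days, and 13, 25 and 29 at 15 days. The ages overlapped, with 1 cell at 6 days and 1 at 10 days within the range of the later ages. The detected genes of all kinds had medians of 1232 at 6 days, 1412 at 10 days, 5595 at 13 days and 4904 at 15 days, and the median shares were 11.4% of the 35 and 5.61% of all rows at 6 days, 31.4% and 6.43% at 10 days, 62.9% and 25.5% at 13 days, and 71.4% and 22.3% at 15 days. Ages of 6 and 15 days share one basecalling version and 10 and 13 days another, so each pair was compared within its version.

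**Figure D5:**
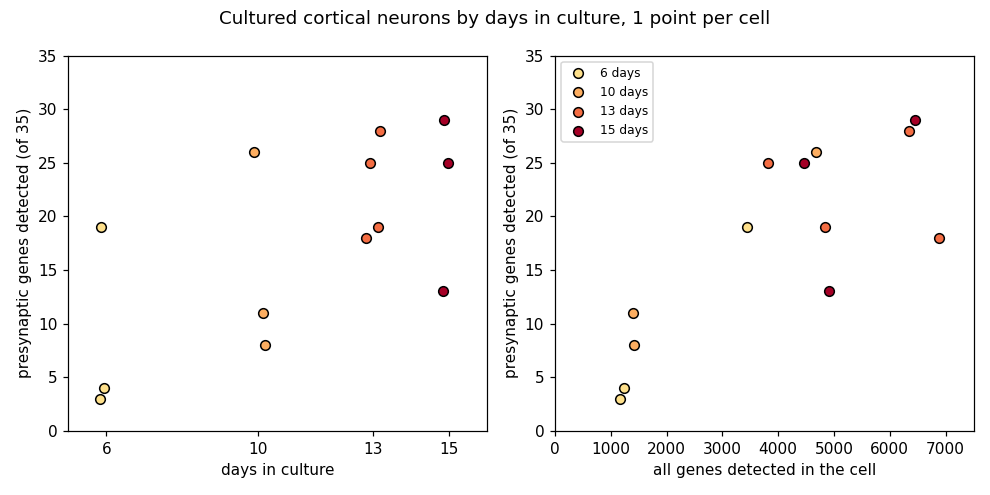
Presynaptic genes detected per cultured cortical neuron (of 35) against days in culture on the left and against all genes detected in the cell on the right, 1 point per cell, coloured by age. The 4 cells with the fewest presynaptic genes, 3 to 11, are of 6 and 10 days and also detect the fewest genes in all.

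At 15 days against 6 days, 25 of 32 measured members were higher and 1 lower, but so were 63.1% of 7108 measured genes higher and 16.9% lower. The median log2 ratio was 2.83 over the members and 2.48 over all genes. With edgeR TMM factors 16 members were higher and 5 lower (52.53% and 25.49% of all genes), and with DESeq2 size factors 14 and 6 (47.5% and 30.89%). Each age has 3 cells, and 12 of the 25 stayed higher with each of the 6 cells left out. At 15 days 2 of the 3 cells detected a larger share of astrocyte than of neuron markers and all 3 at least 3 microglia markers. Of the marker genes measured, 16 of 17 of astrocytes and 7 of 7 of microglia were higher at 15 days. The summed astrocyte markers ranged from 7442 to 11797 CPM at 15 days and from 10.6 to 3184 CPM at 6 days, and the microglia markers from 805.4 to 2008 CPM at 15 days and from 0 to 0.270 CPM at 6 days, where 11 of 12 were at 0. Without the cells against their label by markers, which leaves 1 cell of 15 days, 12 members were higher and 2 lower, and the log2 ratios of Stx1a, Napb and Syt7 were -1.10, -0.70 and -1.99.

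Syp and Syngr1, vesicle membrane proteins, had no count in the 3 cells of 6 days. At 15 days Syp had 0.104, 451.7 and 28.9 CPM, and its sum was at least 1967-fold higher than a floor of 3 counts over the 6-day group, or at least 112.8-fold without the cell at 451.7 CPM. Syngr1 had 12.1 CPM in its lowest and 333.9 CPM in its median cell at 15 days, at least 2181-fold higher. Both genes had counts in 3 cells only, so their calls end through the filter when any of the 15-day cells is left out. Cplx1 had 5.79, 94.0 and 149.7 CPM at 15 days, against 0, 0 and 0.135 CPM at 6 days, and Unc13b 30.5, 139.8 and 5.67 CPM at 15 days, against 0, 0 and 1.21 CPM at 6 days. For both the cells of the 2 ages did not overlap. Rab3a was the lower gene, with 2.19, 10.8 and 113.8 CPM at 15 days, against 15.5, 1259 and 29.8 CPM at 6 days, and it was no longer lower without the cell at 1259 CPM. Synpr varied widely at both ages, with 0.157, 3108 and 21.4 CPM at 15 days, against 1133, 0.239 and 3802 CPM at 6 days. Snap25 had 7.88, 727.0 and 127.4 CPM at 15 days, against 0.910, 1.79 and 783.8 CPM at 6 days. Of further presynaptic genes 16 of 22 were higher and 1 lower, and of broad relatives 14 of 21 higher and 5 lower.

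At 13 days against 10 days, 13 of 32 measured members were higher and 1 lower, where 49.5% of 8959 measured genes were higher and 16.0% lower, or 43.5% and 23.08% with DESeq2 size factors, by which 8 members were higher and 5 lower. Of the astrocyte markers 12 of 14 measured were higher at 13 days, with sums from 922.1 to 23670 CPM at 13 days and from 849.0 to 5007 CPM at 10 days, and without the 1 cell against its label by markers 13 members were higher and 1 lower. Over the members the log2 ratio had a median of 0.80, and over all measured genes 1.15. Of the 13, 6 stayed higher with each of 7 cells left out. Nsf had 610.6, 226.0, 47.8 and 10.96 CPM at 13 days, against 0, 0.0768 and 8.98 CPM at 10 days. Napa lay from 102.3 to 504.4 CPM in the 4 cells of 13 days, against 0.339, 0 and 7.06 CPM at 10 days. Synj1 had 365.2, 905.8, 538.5 and 61.2 CPM at 13 days, against 0, 0.384 and 48.5 CPM at 10 days. In all 3 genes every cell of 13 days was above every cell of 10 days. Syngr1 had 240.5, 9.00, 115.2 and 61.8 CPM at 13 days, against 0, 0 and 59.4 CPM at 10 days. Syn3 was lower, with 1.59, 0, 33.3 and 0 CPM at 13 days, against 5580, 270.7 and 305.4 CPM at 10 days, again without overlap. Vamp2 had 292.4, 214.4, 347.1 and 23.2 CPM at 13 days, against 496.7, 13.1 and 802.0 CPM at 10 days, and met neither rule. Of further presynaptic genes 10 of 28 were higher and 4 lower, and of broad relatives 12 of 24 higher and 1 lower.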

How the data were processed

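Gene counts of 158 libraries were analysed, with groups taken from the sample labels. Per the labels, each cell was taken up in a patch pipette, its polyA RNA was made into a library with an Illumina TruSeq Stranded kit, and basecalling used bcl2fastq 1.8.4 (v1.8.4) or bcl2fastq2 2.17 (v2.17). The series description adds 3 rounds of antisense RNA amplification. The submitters' processing notes name STAR, HTSeq and mm10 (GRCm38). For STAR and HTSeq versions, annotation and strand setting the sources used here give nothing. The deposited values are whole-number read counts for each gene, and nothing in them points to a normalization.

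In 9 pairs libraries were summed as 1 cell, 8 by their titles and 1 (J6) from their counts, where r across genes was 0.945 to 0.999. The J6 titles differ (J6_8min_20 and J6_4min_9), and no label says that they are of 1 cell. Their r was 0.991, against at most 0.591 with any other library. Levels, detection (thinning seed 7), intervals and calls are defined where first used, and the depth of the groups, 27452025 to 1275296188 counts, makes counting error small beside the spread of cells. Values are given in full for up to 4 called members per comparison and direction with the largest difference in detection, and for others where a family or an age is described. The members, gene lists and summing of the J6 pair were chosen with earlier results of these data known. Symbols, exonic length and overlaps come from GENCODE on GRCm38 and promoters from RefSeq.

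Alternatives were edgeR TMM factors and DESeq2 size factors (for scaling only), pseudocounts of 0.1 and 5 CPM, other filters, summed CPM alone, 1 library of each pair, the J6 libraries as 2 cells, 1 basecalling version, 1 culture age, leaving out cells by markers or title, and each neuron left out in turn. Of these, v1.8.4 libraries only, the microglia-marker cells, the cells against their label by markers (for the ages only), the titles ending in D and the single neurons (other than CA3 cells and within the ages) were chosen after seeing the data. Scripts were tested on simulated data and run with Python 3.11.15, numpy 2.4.6, pandas 2.3.3, scipy 1.17.1, R 4.3.3, edgeR 4.0.16 and DESeq2 1.42.0.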

Additional observations from a re-analysis of the deposited data

Results flagged for a closer look

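Of 82 sets of 4 to 10 cells examined, 17 had a cell far from the others by Dixon's test at 95%. Chance gives about 1 in 20 sets only for independent, normally distributed values. Levels at 0 in all cells but 1 always meet the test, so no excess over chance can be read from the 17. The sets were cultured hippocampal, CA3 and 13-day cultured cortical neurons, for the log2 levels of the presynaptic genes whose values are given in full by the naming rule and for the number of these genes and of all genes detected per cell. In cultured hippocampal neurons the cell titled M9D was low in 3 genes, with 24.7 CPM of Syp against 141.7 to 276.1 in the others, 31.8 CPM of Syngr1 against 232.8 to 811.6, and 24.1 CPM of Sh3gl2 against 115.6 to 322.3. Other single cells there were low in Syn3 (0.803 CPM) or Unc13a (0.161 CPM). Single cells were high in Sv2b (35.6 CPM), Rims1 (8.60 CPM) or Synpr (0.189 CPM, the only cell with a count). In CA3, 1 cell each was high in Syp (31.2 CPM), Rab3b (260.7 CPM) and Rims1 (0.510 CPM, from 1 count). Sv2b and Amph were each at 0 in 1 CA3 cell. In cultured cortical neurons of 13 days, 1 cell was high both in Vamp1 (70.2 CPM) and Rab3b (630.9 CPM), and other cells in Unc13b (276.7 CPM) and Syt7 (501.1 CPM).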

How the results depend on the processing

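Of 172 recomputed counts of members, 23 moved by more than 1.5 times, and of 1746 log2 ratios of single members, 1664 moved by less than 1 SD between cells, 53 by more and 29 changed sign. That SD is of log2 levels over single cells and is wide for genes at 0 in many cells. A move below it therefore does not show that a ratio is stable. For cultured cortical neurons over astrocytes, 1 member was lower with summed CPM alone, without cells of at least 3 microglia markers and with cells of 15 days only, where Vamp1 had a log2 ratio of -2.90. For CA1 over cultured hippocampal neurons, 9 were higher and 8 lower with TMM, 12 and 8 with DESeq2 factors, 2 higher with a pseudocount of 5 CPM and 7 without microglia-marker cells. Snap25 became 0.023 and 0.26, and Syngr1 0.053 and 0.29, with TMM and DESeq2, and Sv2b -0.62 within v2.17. Within v1.8.4, 4 members were lower for slice over cultured cortical neurons, with Syn1 0.33, Syn3 0.39, Cplx2 0.28 and Sh3gl2 0.62. Within v1.8.4, 5 were higher and 19 lower for CA1 over cortical slice neurons, with Vamp1 -1.36, Vamp2 -0.45, Syn1 -3.23, Rims1 -0.44, Pclo -6.01, Amph -3.28, Syp 1.26 and Sv2b 0.36. Without microglia-marker cells 15 were lower for CA1 over cortical slice neurons with Cplx2 at -3.96, and for CA3 over CA1 Syn2 was -0.16 and Cplx2 0.60. For 15 over 6 days, 16 were higher and 5 lower with TMM, and 14 and 6 with DESeq2, where Vamp2 was -0.30, Syn1 -0.31 and Dnm1 -0.11. Without cells against their label by markers, which leaves 1 cell of 15 days, 12 were higher and 2 lower, with Stx1a -1.10, Sv2b -0.049, Rab3b -0.085, Napb -0.70 and Syt7 -1.99. For 13 over 10 days, 8 were higher with DESeq2, and 4 lower with TMM, 5 with DESeq2 and 4 with summed CPM alone. Astrocytes detected 9.5 members per cell at 1 count or more. The cause of these changes was not tested.

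With 1 cell left out in turn, higher and lower members ranged over 24 to 27 and 0 to 1 for cultured cortical neurons over astrocytes, 17 to 23 and 3 to 5 for hippocampal over cortical cultures, 11 to 16 and 5 to 8 for slice over cultured cortex, 3 to 5 and 13 to 16 for CA1 over hippocampal cultures, 5 to 9 and 6 to 10 for CA1 over cortical slices, and 5 to 10 and 6 to 12 for CA3 over CA1. They ranged over 16 to 27 and 1 to 5 for 15 over 6 days (16 higher without the cell titled J8_23), and 8 to 20 and 1 to 6 for 13 over 10 days (8 without the 13-day cell of replicate 10, 20 without the 10-day cell of replicate 12). Without CA1_41, 5 were higher for CA1 over cortical slices. Members detected per cell ranged over 3.5 to 11.5 at 6 days, 9.5 to 18.5 at 10 days, 20.7 to 24 at 13 days, 19 to 27 at 15 days and 19.8 to 21.5 in CA3. No paired analysis was possible because the result comes from no test and replicate numbers do not pair cells.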

Other observations

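The titles of the cortical slice neurons begin with F (5 cells), P (16 cells) or RS (1 cell), letters the labels do not explain. Of the 35 genes 14 were higher and 8 lower in F cells than in P cells by the same fold rule, where 20.65% of 11001 measured genes were higher and 43.77% lower. The vesicle glycoprotein genes split: Sv2b had 0.110 CPM in F cells (0 of 5) and 180.9 CPM in P cells (9 of 16), while Sv2a had 308.6 CPM in F cells and 23.3 CPM in P cells. Vamp1 had 177.8 CPM in F cells (3 of 5) and 20.2 CPM in P cells (1 of 16), and Syn2 had 140.7 CPM in F cells and 1135 CPM in P cells. For Syn2 the F cells ranged from 0 to 420.1 CPM, and the P cells from 0 to 7885 CPM with a median of 35.6. The 6 cortical slice cells against their label by markers (P14, P16, P21, P22, P27 and P32) are all P cells. Gad1, which makes the transmitter GABA, was detected in 5 of 5 F cells and 2 of 16 P cells, and the glutamate transporter Slc17a7 in 0 of 5 F cells and 10 of 16 P cells. The part of these markers in the split was not tested.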
